A study of Mus musculus with 6 samples.

Results

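A set of 10 genes of fibroblast growth factor (FGF) signaling were followed in the heads of E9.0 mouse embryos carrying a tissue-specific deletion of 1 *Snrpb* allele. *Snrpb* encodes a core protein of the spliceosome. The genes are 5 secreted ligands (*Fgf8*, *Fgf17*, *Fgf15*, *Fgf3* and *Fgf10*) and 5 genes induced by the pathway that feed back on it or carry it onward (*Spry1*, *Spry2*, *Dusp6*, *Etv4* and *Etv5*). The members were chosen by symbol, and all 10 were found among the 24421 genes of the count table. All 10 also passed the filter on low counts that left 15584 genes for testing, so no member was lost.

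FGF ligands bind tyrosine kinase receptors with heparan sulfate as a cofactor, and the receptors signal through RAS and the ERK kinases to the nucleus. In the embryonic head, FGF8 from the isthmus, the anterior neural ridge and the pharyngeal arch ectoderm patterns the brain and keeps the neural crest cells that build the face alive. The Sprouty proteins, the ERK phosphatase DUSP6 and the ETS transcription factors ETV4 and ETV5 are made where the signal is received, so their transcripts serve as a common readout of FGF activity.

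WT and mutant heads were compared, with 3 libraries each. The mutants, Snrpb ncc+/-, carried 1 *Snrpb* allele with loxP sites and the Wnt1-Cre2 transgene, which deletes that allele in the neural tube and the neural crest. The WT group was labelled SnrpB +/+, and the sources used here do not say whether those embryos carried the Cre or the loxP allele. Each library pooled 2 somite-matched heads of 1 genotype from different litters, on a background that the study's methods give as mixed CD1 and C57BL/6J. The labels name these strains in separate fields. Because the Cre acts in neural tube and neural crest only, surface ectoderm, mesoderm and endoderm kept both *Snrpb* copies in every library. Several of these ligands are made there, and some are made in the neural tube. In such bulk samples, fewer cells of a type and less RNA per cell cannot be told apart.

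Total counts ran from 36378803 to 58946111 in WT and from 42398206 to 74909774 in mutants. *Snrpb*, the targeted gene, stood at 430, 438 and 414 CPM (the read count scaled by the effective library size) in WT replicates 1, 2 and 3 and at 436, 412 and 430 CPM in mutant replicates 1, 2 and 3, with a log2 fold change of −0.004 ± 0.04 (SE). No difference was detected at the gene that the labels name, and counts per gene do not separate the deleted exons from the rest. Over all tested genes, edgeR's quasi-likelihood test with Benjamini-Hochberg adjustment called 1 gene, *A3galt2*, which is not in the FGF pathway. DESeq2 called 84.

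One library stood apart, and it bears on most of the members. WT replicate 1 had the lowest value of all 6 libraries for 10 of 10 heart muscle genes, whose summed level was 20.1 CPM against 118 and 146 CPM in the other WT libraries and 63.1 to 291 CPM in the mutants. It was also lowest for 6 of 6 second heart field genes (62.3 CPM summed, against 91.2 to 112 CPM in the other 5 libraries) and highest for 8 of 8 forebrain and neural tube genes (416 CPM against 337 to 359 CPM). Its visceral endoderm genes summed to 27.9 CPM against 5.98 to 7.70 CPM elsewhere. No label explains this library, and several results that rest on it are given with and without it. For other genes the value without it is not reported here. Head markers such as *Six3*, *Otx1*, *Pax6* and *Sox2* were detected in all 6 libraries, as the labelled tissue requires, while the 11 tail bud markers summed to 3.10 to 6.03 CPM.

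**Figure D1:**
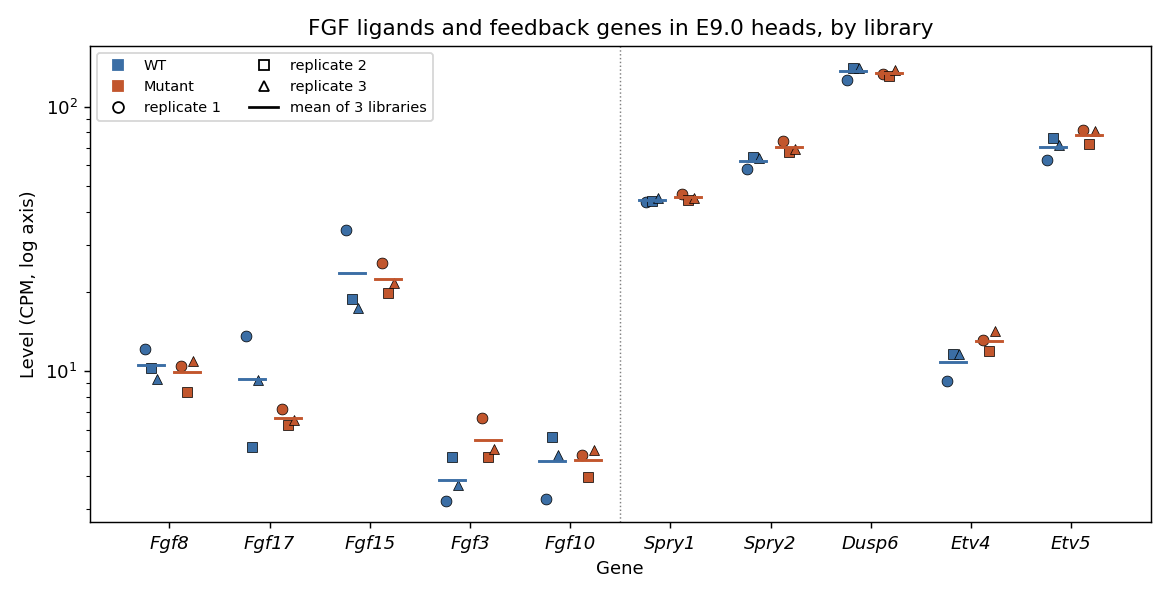
Level of each gene in CPM (log axis) in the 3 WT (blue) and 3 mutant (orange) libraries; bars are means and symbols mark the replicate number. *Fgf3*, *Spry2* and *Etv4* have all mutant points above all WT points, and WT replicate 1 (blue circle) is the highest point for *Fgf8*, *Fgf17* and *Fgf15* and the lowest for the other 7 genes.

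None of the 10 genes was called different between mutants and WT by edgeR's quasi-likelihood test with Benjamini-Hochberg adjustment, where 0.00642% of all tested genes were called. None was called by DESeq2 either, where the share over all genes given an adjusted p was 0.651%. Adjusted p ran from 0.468 to 0.999 with edgeR and from 0.398 to 0.998 with DESeq2. The median log2 fold change of the members was 0.02, against 0.0004 over all tested genes, with 5 members positive and 5 negative. At an unadjusted p under 0.05, 3 members were higher in mutants, *Fgf3*, *Spry2* and *Etv4*, where 4.34% of all genes were, and none was lower, where 4.09% were. The same 3 genes had every mutant library above every WT library, against 8.32% of all genes, and no member had every mutant library below every WT library, against 6.92%. Without WT replicate 1, only *Fgf15* reached this unadjusted threshold, with the higher mean in mutants. Over all genes fitted without that library, 5.54% were higher and 4.5% lower at that threshold. Leaving out mutant replicate 1 left no member at that threshold, against 3.71% of all genes higher and 3.41% lower. When WT replicate 2 was left out, *Fgf3*, *Spry2*, *Etv4* and *Etv5* were higher and *Fgf17* lower, where 5.15% of all genes were higher and 6.23% lower. Y-linked genes ran higher in the mutant pools, with 4 genes summing to 62.8 to 120 CPM in WT and to 111 to 228 CPM in mutants. With the Y-linked level as a covariate only *Etv4* reached the threshold, against 1.8% of all genes higher and 1.52% lower, and its log2 fold change was 0.41 ± 0.15 (SE).

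The genes spanned a wide range of levels, which can be compared between genes only per length of exon. Per kilobase of the union of annotated exons, *Dusp6* was highest in WT at 43.4 ± 2.58 CPM per kb (SD, n = 3), followed by *Spry2* at 29.9 ± 1.76, *Etv5* at 17.1 ± 1.58 and *Spry1* at 15.3 ± 0.270. The ligands came next, with *Fgf8* at 7.85 ± 1.04, *Fgf15* at 7.66 ± 3.06 and *Fgf17* at 5.53 ± 2.50 CPM per kb. *Etv4* at 3.48 ± 0.449, *Fgf3* at 1.67 ± 0.329 and *Fgf10* at 0.996 ± 0.258 CPM per kb closed the order. The WT libraries did not overlap between *Dusp6* and *Spry2*, between *Spry2* and *Etv5*, between *Etv4* and *Fgf3*, or between *Fgf3* and *Fgf10*. They overlapped between *Etv5* and *Spry1*, among *Fgf8*, *Fgf15* and *Fgf17*, and between *Fgf17* and *Etv4*. Read within each library, WT or mutant, *Etv5* was above *Spry1*, and *Fgf8* and *Fgf15* were above *Fgf17*, in every library. The order of *Fgf8* and *Fgf15*, and that of *Fgf17* and *Etv4*, switched between libraries and is not resolved. All feedback genes but *Etv4* therefore lay above every ligand. The annotated exon union can hold rarely used exons, so a level per kilobase may be understated for genes with long alternative transcripts.

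**Figure D2:**
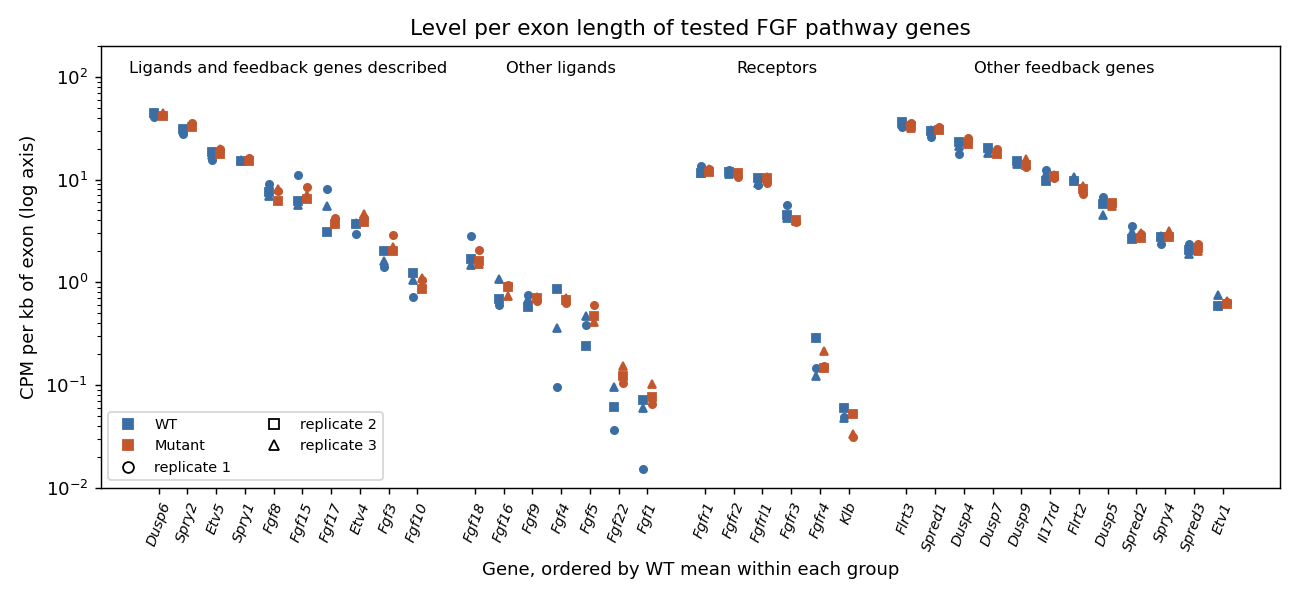
Level per kilobase of annotated exon (log axis) of the tested FGF genes, ordered by the WT mean within each group, with WT libraries in blue and mutant libraries in orange. *Dusp6* leads the 10 genes described at 43.4 CPM per kb in WT and *Fgf10* closes them at 0.996. Blue and orange points of each of these 10 lie close together compared with that span, but points of some neighbouring genes overlap. *Spry3* is not drawn because no length was matched.

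ETS factors such as ETV4 and ETV5 bind DNA around the letters GGAA, so the sequence before the start of each member was read for 2 ETS-type hexamers. The RefSeq table (GRCm38.p6) held a start for 6 of the 10 genes, *Spry1*, *Spry2*, *Dusp6*, *Fgf3*, *Fgf10* and *Etv5*, with 7 windows of 250 bases, since *Etv5* has more than 1 start. CCGGAA, sought on both strands, was in none of these 7 windows and in 12.0% of 32851 windows of all genes. CAGGAA was in 3 of them and in 25.7% of all. The matches lie 212 bases before the RefSeq start of *Fgf3*, 98 before that of *Spry2* and 57 before 1 of *Etv5*, none in an annotated exon. The Gencode genes given below begin further upstream for *Fgf3* and *Etv5*, so those matches fall inside the annotated genes. Every match found in these windows is shown. Each is printed in the direction of its gene, with the hexamer or its reverse complement TTCCTG in capitals, from *Fgf3* chr7:144838388-144838417 (plus strand), *Spry2* chr14:105896900-105896929 (minus strand) and *Etv5* chr16:22438408-22438437 (minus strand).
Fgf3: acacgacccccaTTCCTGggtgaaaattca
Spry2: tctctcatcgacCAGGAAaaaaagagactc
Etv5: ccagttaaagttTTCCTGggggcaccctgg
A match of these letters describes the sequence and does not show that a factor binds there.

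*Fgf8* (mm10 chr19:45736798-45742915), the ligand of the isthmus and the arch ectoderm, was at 12.1, 10.3 and 9.35 CPM in WT replicates 1, 2 and 3 and at 10.5, 8.31 and 10.9 CPM in mutant replicates 1, 2 and 3. The highest library was a WT library and the lowest a mutant library, and the groups overlapped across most of their range. WT libraries averaged 10.6 ± 1.40 CPM (SD, n = 3), mutant libraries 9.90 ± 1.39 CPM. The log2 fold change of −0.10 ± 0.13 (SE) had an adjusted p of 0.870 (edgeR), and the 95% interval of the fold ran from 0.759 to 1.15. Leaving out WT replicate 1 brought it to −0.002.

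*Fgf17* (chr14:70636203-70642268), a close relative of *Fgf8* made in a broader domain around the isthmus, was at 13.6, 5.16 and 9.27 CPM in WT and at 7.20, 6.26 and 6.56 CPM in mutants, in replicate order. The 3 mutant libraries lay close together and inside the WT range, which spanned 2.63-fold from lowest to highest against 1.15-fold in mutants. Its log2 fold change of −0.47 ± 0.34 (SE) was the most negative of the 10 and had an adjusted p of 0.741 (edgeR). Its 95% interval, a fold of 0.406 to 1.28, was also the widest on the log2 scale, so these libraries exclude neither a large loss nor a moderate gain of the transcript. Leaving out WT replicate 1, the highest library, brought the log2 fold change to −0.10, and leaving out WT replicate 2, the lowest, brought it to −0.78 ± 0.16 with an adjusted p of 0.248 (edgeR).

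*Fgf15* (chr7:144896531-144900953), the mouse counterpart of human FGF19 and a ligand of the midbrain and hindbrain, was at 34.2, 18.7 and 17.4 CPM in WT and at 25.6, 19.7 and 21.5 CPM in mutants. WT replicate 1 was the highest of all libraries, while WT replicates 2 and 3 were the lowest, so every mutant library lay between them. Its log2 fold change was −0.07 ± 0.30 (SE) with an adjusted p of 0.967 (edgeR). The sign turned without WT replicate 1, to a log2 fold change of 0.29 ± 0.11 with an adjusted p of 0.463. Of its annotated exon bases, 787 are shared with genes on the opposite strand, and how strand was treated in counting is not given in the sources used here.

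*Fgf3* (chr7:144838083-144844436), a ligand of the hindbrain that helps to induce the ear and is also made in the pharyngeal pouches, was at 3.24, 4.73 and 3.70 CPM in WT and at 6.68, 4.74 and 5.07 CPM in mutants. All mutant libraries exceeded all WT libraries, but mutant replicate 2 and WT replicate 2 differed only in the third decimal, at 4.736 and 4.734 CPM. At 0.48 ± 0.18 (SE), its log2 fold change was the highest of the 10, a fold of 1.39 with a 95% interval of 1.05 to 1.85. It did not pass the test over all genes, with an adjusted p of 0.515 (edgeR). These are low counts, from 118 to 360 reads per library. With WT replicate 1 left out it was 0.35 ± 0.18.

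*Fgf10* (chr13:118669791-118792115), a ligand of the second heart field, the pharyngeal mesoderm and the otic region, was at 3.30, 5.64 and 4.81 CPM in WT and at 4.83, 3.97 and 5.04 CPM in mutants. The mutant libraries lay inside the WT range. Mutants and WT differed by a log2 fold change of −0.003 ± 0.19 (SE), with an adjusted p of 0.999 (edgeR) and a 95% interval of the fold from 0.736 to 1.35. The lowest library, WT replicate 1, is also the one in which the second heart field genes were lowest, and whether that library's makeup set the *Fgf10* value was not tested. Leaving this library out gave a log2 fold change of −0.19.

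Taken by class, the ligands had a median log2 fold change of −0.07, with 1 of 5 positive, and 3 of them, *Fgf8*, *Fgf17* and *Fgf15*, were highest in WT replicate 1, where the forebrain and neural tube genes were also highest. The other 2, *Fgf3* and *Fgf10*, were lowest there. The feedback genes had a median of 0.16, with 4 of 5 positive, and all 5 were lowest in that library. Without it their median was 0.08, again with 4 of 5 positive. The 13 other feedback genes described below, over all libraries, had a median of −0.04, with 5 positive and 8 negative. A difference between the classes was not tested.

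*Spry1* (chr3:37639947-37644598), which encodes a Sprouty inhibitor of receptor tyrosine kinase signaling, was at 43.6, 44.2 and 45.2 CPM in WT and at 46.7, 44.5 and 45.2 CPM in mutants. It was the steadiest member across the libraries, with a ratio of highest to lowest of 1.04 in WT and 1.05 in mutants, and the groups overlapped. A log2 fold change of 0.04 ± 0.05 (SE), with an adjusted p of 0.862 (edgeR), left a 95% interval of the fold from 0.955 to 1.10. On the log2 scale this was the narrowest interval of the 10 genes. Of its exon bases, 710 are shared with a gene on the opposite strand.

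*Spry2* (chr14:105891947-105896819), the Sprouty gene with the higher level per length in these heads, was at 58.1, 64.8 and 64.1 CPM in WT and at 74.0, 67.7 and 69.0 CPM in mutants. The groups did not overlap, the nearest libraries being at 67.7 and 64.8 CPM. The difference was 0.17 ± 0.06 (SE) on the log2 scale, a fold of 1.13 with a 95% interval of 1.03 to 1.23, and it had the lowest adjusted p of the 10 at 0.468 (edgeR). It did not pass the test over all genes, and leaving out WT replicate 1 reduced it to 0.12 ± 0.05.

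*Dusp6* (chr10:99263231-99267489), whose product removes the activating phosphates from ERK, had the highest level of the members, at 127, 141 and 141 CPM in WT and at 132, 130 and 138 CPM in mutants. The mutant libraries lay inside the WT range. Its log2 fold change was −0.03 ± 0.05 (SE) with an adjusted p of 0.913 (edgeR), and the 95% interval of the fold was 0.907 to 1.06. With 4611 to 9896 reads per library, this was the most deeply counted member. In the fit of all 6 libraries, a reduction of *Dusp6* beyond that lower bound was outside its interval. Without WT replicate 1, its lowest library, every mutant library was below the remaining WT libraries. The log2 fold change was then −0.08 ± 0.04 (SE), and an interval for that fit is not reported here.

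*Etv4* (chr11:101769742-101785371), an ETS transcription factor of the PEA3 group, was at 9.20, 11.6 and 11.6 CPM in WT and at 13.1, 11.9 and 14.2 CPM in mutants. The groups did not overlap, and the gap between WT and mutant replicates 2 was small. The difference of 0.27 ± 0.11 (SE) on the log2 scale corresponds to a fold of 1.20 with a 95% interval of 1.01 to 1.43, and the adjusted p was 0.554 (edgeR). It was 0.16 ± 0.09 when WT replicate 1 was left out.

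*Etv5* (chr16:22381309-22439719), its close relative, was at 63.1, 75.9 and 71.5 CPM in WT and at 81.6, 72.6 and 81.0 CPM in mutants. Mutant replicates 1 and 3 were above all WT libraries, and mutant replicate 2 was below WT replicate 2. For *Etv5* the log2 fold change was 0.16 ± 0.07 (SE) with an adjusted p of 0.621 (edgeR), and the 95% interval of the fold, 0.991 to 1.26, included no change. Leaving out WT replicate 1 gave 0.08. *Spry1*, *Spry2*, *Etv4* and *Etv5* all had WT replicate 1 lowest and mutant replicates 1 and 3 as the highest pair.

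**Figure D3:**
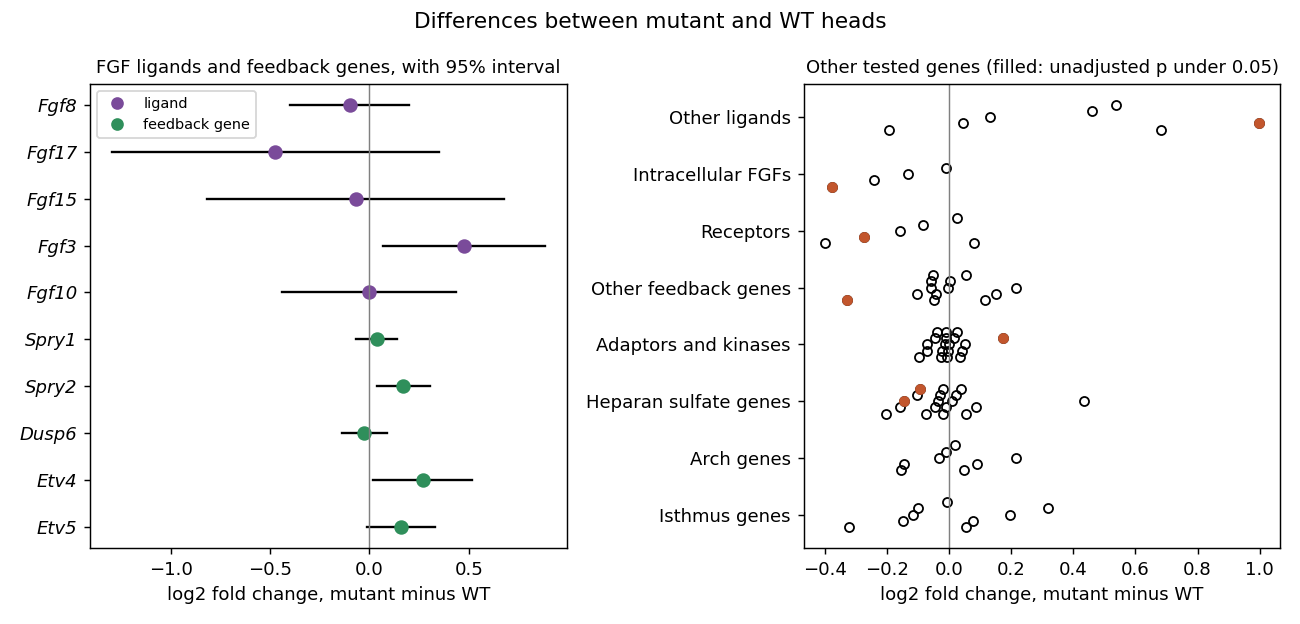
Log2 fold change, mutant minus WT, of the 5 ligands and 5 feedback genes with 95% intervals (left), and of each other tested FGF gene by group (right), where filled points had an unadjusted p under 0.05. On the left, the intervals of *Fgf3*, *Spry2* and *Etv4* lie above 0 and that of *Fgf17* is the widest on the log2 scale; on the right, most points lie within 0.2 of 0 and none passed adjustment with edgeR.

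Extremes of the members were uneven across the libraries. WT replicate 1 was lowest for 7 members and highest for 3, whereas mutant replicate 1 was the highest library for 4. Relative to the mean of the 6 libraries on the log2 scale, WT replicate 1 stood at 0.84 for *Fgf17*, 0.62 for *Fgf15* and 0.25 for *Fgf8*, and at −0.50 for *Fgf3*, −0.46 for *Fgf10* and −0.36 for *Etv4*. The second heart field genes were at −0.57 and the heart muscle genes at −2.31 in this library, and the head and isthmus lists at 0.22 and 0.25. The part of tissue makeup in the members' values was not tested.

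**Figure D4:**
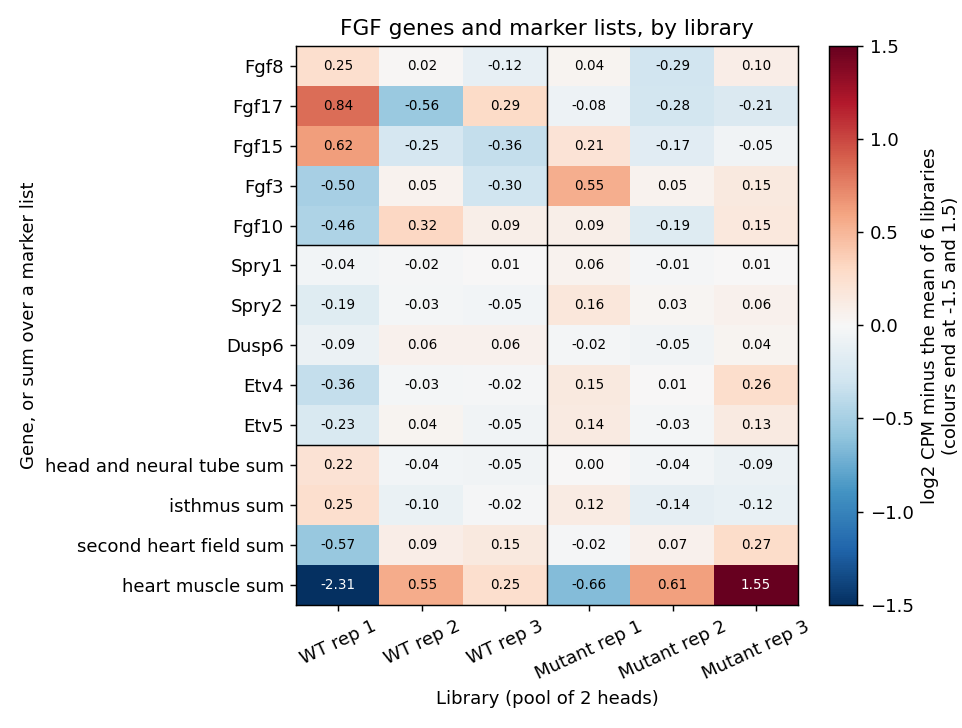
Log2 CPM of each gene, and of the sum over 4 marker lists, minus the mean of the 6 libraries (red above, blue below; the colours end at −1.5 and 1.5, and each cell prints its value). The column of WT replicate 1 holds the largest deviation, heart muscle genes at −2.31, together with *Fgf17* at 0.84, *Fgf15* at 0.62 and *Fgf3* at −0.50. Heart muscle genes also stood at 1.55 in mutant replicate 3.

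The members were then set beside the other genes of the pathway. Of 74 further genes in 6 lists, 67 were tested, and edgeR's quasi-likelihood test with Benjamini-Hochberg adjustment called 0 of them, while 2 were higher and 5 lower in mutants at an unadjusted p under 0.05, where 4.34% and 4.09% of all genes were. Their median log2 fold change was −0.01. DESeq2 called 1, *Flrt2*, against 0.651% of all genes.

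*Flrt2* encodes a membrane protein that binds FGF receptors and also acts in cell adhesion and guidance. It stood at 76.7, 74.1 and 82.1 CPM in WT and at 55.6, 62.0 and 67.5 CPM in mutants, so the groups did not overlap. The log2 fold change was −0.33 ± 0.07 (SE), with an adjusted p of 0.309 from edgeR and of 0.014 from DESeq2. In edgeR it was −0.34 without WT replicate 1 and −0.20 ± 0.09 with the Y-linked covariate. Its relative *Flrt3*, which averaged 168 ± 9.13 CPM across WT and 163 ± 8.65 CPM across mutant libraries (SD, n = 3), had a log2 fold change of −0.05 and overlapping groups.

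Among the 13 other ligands, 7 were tested, and all were lower in level per length than *Fgf8*. Their log2 fold changes had a median of 0.46, with 6 of 7 positive and most on few reads. WT replicate 1 was lowest for 6 of the 13 and highest for 3, and the median without it is not reported here. *Fgf9* and *Fgf18*, the best counted, were at 3.14 ± 0.418 and 2.35 ± 0.851 CPM in WT libraries against 3.22 ± 0.167 and 2.06 ± 0.351 CPM in mutant libraries (SD, n = 3). *Fgf22* had a log2 fold change of 1.00 ± 0.39 on only 3 to 23 reads per library, and *Fgf5* one of 0.46 ± 0.27. Their adjusted p values from edgeR were 0.535 and 0.678. *Fgf21*, an endocrine FGF, had no count in any library, which does not exclude a transcript too rare to be counted at these depths. The 4 intracellular FGF homologous factors, which act on sodium channels and not through FGF receptors, all had negative log2 fold changes. *Fgf13* was at 11.4, 8.50 and 9.43 CPM in WT and at 8.24, 7.39 and 6.93 CPM in mutants. The groups did not overlap, and the log2 fold change of −0.38 ± 0.13 had an adjusted p of 0.461 (edgeR). Without WT replicate 1, its highest library, the log2 fold change was −0.26 ± 0.11. *Fgf14*, *Fgf12* and *Fgf11* had values of −0.13 ± 0.16, −0.24 ± 0.24 and −0.009 ± 0.28.

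Of the 7 receptors and coreceptors through which the ligands act, 6 were tested, and 1, *Fgfr3*, had an unadjusted p under 0.05. Over all genes, 4.34% were higher and 4.09% lower in mutants at that threshold. *Fgfr1* averaged 120 ± 10.9 CPM in WT libraries and 123 ± 4.37 CPM in mutant libraries (SD, n = 3), and *Fgfr2* at 123 ± 6.71 and 116 ± 5.24 CPM. *Fgfr3*, a receptor of the neural tube, was at 40.2, 32.1 and 30.3 CPM in WT and at 27.7, 28.8 and 28.2 CPM in mutants. All mutant libraries were below all WT libraries, and the log2 fold change of −0.27 ± 0.10 had an adjusted p of 0.501 (edgeR). WT replicate 1, in which neural tube genes were highest, was highest for *Fgfr3*, and its omission gave −0.15 ± 0.05.

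Of the 13 other feedback genes, all tested, *Flrt2* alone had an unadjusted p under 0.05, against 4.34% of all genes higher and 4.09% lower. The 13 had a median log2 fold change of −0.04, with 5 positive and 8 negative. *Spred1*, an inhibitor of RAS activation, averaged 195 ± 15.6 CPM in WT libraries and 211 ± 7.34 CPM in mutant libraries (SD, n = 3). *Dusp4*, which encodes a nuclear phosphatase of MAP kinases, had a log2 fold change of 0.22 ± 0.10, with an adjusted p of 0.603 (edgeR), and was lowest in WT replicate 1 as were *Spry2*, *Etv4* and *Etv5*. Without that library the difference was 0.11 ± 0.07.

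Downstream of the receptors, 19 adaptors and kinases were tested. *Mapk3*, which encodes ERK1, was at 51.4, 54.2 and 60.1 CPM in WT and at 60.7, 62.2 and 64.0 CPM in mutants. The nearest libraries of the groups were close, and the log2 fold change of 0.17 ± 0.06 had an adjusted p of 0.486 (edgeR). Without WT replicate 1, its lowest library, the log2 fold change was 0.12 ± 0.06. *Nras* and the adaptor gene *Gab1* had log2 fold changes of −0.01 ± 0.05 and −0.10 ± 0.08. The other genes of this list lay between −0.10 and 0.17 as well.

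Heparan sulfate holds FGF on its receptors, and 18 genes of its synthesis, its sulfatases, its core proteins and secreted FGF-binding proteins were tested. *Ext2*, a polymerase of the chain, had a log2 fold change of −0.15 ± 0.05, and *Hs2st1*, a sulfotransferase, one of −0.09 ± 0.04, with edgeR adjusted p values of 0.486 and 0.557. Neither had overlapping groups, with a mean of 49.6 ± 1.97 to 44.8 ± 1.56 CPM and of 94.4 ± 2.19 to 88.4 ± 1.56 CPM (SD, n = 3). The glypicans *Gpc3* and *Gpc1* had values of 0.05 ± 0.08 and −0.04 ± 0.04.

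Genes tied to FGF8 in the pharyngeal arches and at the isthmus were read as well. Of 8 arch genes and 9 isthmus genes, 0 were called by edgeR or DESeq2 and 0 had an unadjusted edgeR p under 0.05. Over all genes, edgeR called 0.00642% and DESeq2 0.651%, while 4.34% were higher and 4.09% lower at that unadjusted threshold. *Msx2* averaged 18.2 ± 0.933 CPM in WT libraries and 18.1 ± 2.15 CPM in mutant libraries (SD, n = 3), and *Msx1* at 12.3 ± 1.57 and 11.2 ± 1.92 CPM. *Pitx1* and *Edn1* had log2 fold changes of −0.16 ± 0.09 and 0.22 ± 0.13. At the isthmus, *En2* had a log2 fold change of −0.32 ± 0.22 and *Otx2* one of −0.12 ± 0.10, while *Wnt1*, whose regulatory sequence drives the Cre transgene, and *Pax8* had values of 0.32 ± 0.18 and 0.20 ± 0.13. The summed isthmus genes were highest in WT replicate 1, at 268 CPM against 205 to 245 CPM in the other 5 libraries, but *Otx2* alone made up 141 CPM of that sum. Of the 9 genes, 5 were highest in that library and 2, *Gbx2* and *Pax8*, were lowest there.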

How the data were processed

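RNA was extracted from pools of 2 E9.0 heads and sequenced from ribosomal RNA depleted, stranded total RNA libraries. The authors deposited 1 table of raw read counts per gene, not normalized, for 6 libraries; the submitters' processing notes name Trim Galore, STAR, MultiQC and featureCounts with mm10, whereas the study's methods name HTSeq as the counter. The strand setting is not given in the sources used here, so antisense overlaps were reported as shared.

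The 10 members, the pathway lists and the marker lists were chosen with earlier results of these data known. Groups came from the sample titles. Genes were filtered with filterByExpr, which left out 8837 genes, and scaled by TMM in edgeR 4.0.16 (R 4.3.3). Mutants were compared with WT by the robust quasi-likelihood test with Benjamini-Hochberg adjustment over 15584 genes at 0.05; the common biological coefficient of variation was 8.71%. DESeq2 1.42.0 was an alternative, beside other scalings, filters, a replicate block, a Y-linked covariate and the omission of each library. CPM used TMM effective library sizes. SEs were derived from the fold change and the F statistic, and intervals cover 95%. The p-values measure the spread between pools of heads. With 3 against 3 libraries an exact permutation test of 1 gene cannot go below 0.1, so none was used. Depths of 36378803 to 74909774 counts limit genes with few reads. The named genes are *Snrpb*, the members and, in each pathway list, the genes past the threshold, the 2 most highly expressed and the 2 of lowest unadjusted p; *A3galt2* and the head markers were named after their values were seen, and some genes of the lists are not reported here by name. Gene positions and exon lengths are from Gencode M21 (mm10). The script was tested on simulated counts. Replicates differed by far more than sampling noise, so none was merged.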

Additional observations from a re-analysis of the deposited data

How the results depend on the processing

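No member was called under any of the 13 alternatives, where the members' adjusted p ran from 0.248 to 0.999. The count over all genes, 1, was 84 with DESeq2, 11 with no filter on low counts and 0 with the Y-linked level as covariate, and ran from 0 to 6 when each library was left out. The median log2 fold change of the members ran from −0.0083 to 0.1089 without 1 library, highest without WT replicate 2. Of 130 recomputed member values, 119 kept their direction and 11 turned, and *Fgf17*, *Fgf3*, *Spry1*, *Spry2*, *Etv4* and *Etv5* never turned. *Fgf10* turned to 0.0087 with library size alone, 0.0121 with the replicate block and 0.0968 with the Y-linked covariate, which also took *Dusp6* to 0.0298. Leaving out each library gave −0.1842 to 0.014 for *Fgf8*, −0.2411 to 0.2916 for *Fgf15*, −0.1932 to 0.1836 for *Fgf10* and −0.0774 to 0.0004 for *Dusp6*; the cause was not tested. The widest such range was that of *Fgf17*, −0.7796 to −0.0993. The replicate numbers are not said to mark a shared litter or day, so they were not taken as pairs. Same-numbered libraries had correlations of 0.169, 0.032 and 0.360, and unlike-numbered ones of −0.245 to 0.088. Not every library correlated best with its own number. With the replicate block 1 gene and 0 members were called. Depth limits *Fgf22*, with 3 to 23 reads per library, and *Fgf4*, *Fgf5*, *Fgf12* and *Fgf18* more than any member; the least counted members were *Fgf3* and *Fgf10*.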

Other observations

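Across the 6 libraries, the tested genes whose pattern was closest to that of *Fgf8*, by the root mean square difference of log2 CPM after each gene's mean was removed, were *Tssk6* (0.0474), *Lrfn1* (0.0538) and *Tmem121* (0.0577). For *Dusp6* they were *Glce* (0.0061), an epimerase of heparan sulfate synthesis, *Ugp2* (0.00982) and *Rnf149* (0.0151). All 6 libraries enter each value, and they share depth and tissue makeup, so these are descriptions only.

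Immediate early genes, which ERK signaling and also tissue handling can induce, were read as a further set. Over all genes, edgeR called 0.00642%, and 4.34% were higher and 4.09% lower in mutants at an unadjusted p under 0.05. Of the 10 tested here, edgeR called 0, with 0 higher and 1 lower in mutants at that threshold. That gene was *Jun*, at 28.2, 28.9 and 28.4 CPM in WT and 25.8, 23.3 and 24.4 CPM in mutants in replicate order, with a log2 fold change of −0.22 ± 0.06 (SE) and an edgeR adjusted p of 0.424. The 8 genes of the neural crest list had a median log2 fold change of 0.07 in edgeR, with 6 positive. Their summed level was lowest in WT replicate 1, at 295 CPM against 318 to 375 CPM in the other libraries. In that library 3 of these genes were lowest, and the median without it is not reported here. Of the 8 genes, 0 were called and 0 had an unadjusted p under 0.05, with the same shares over all genes as above. Bulk libraries do not show whether their reads came from cells in which the Cre acts. The largest of these differences was negative, −0.41 ± 0.21 (SE) for *Prrx1*, with an adjusted p of 0.668 from edgeR and of 0.325 from DESeq2.

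*Fgf4*, named after its values were seen, was at 0.302 CPM in WT replicate 1 against 1.14 to 2.76 CPM in the other 5 libraries, from 11 reads in the former.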
